A study of Mus musculus with 6 samples.

Results

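Regulators of G protein signalling (RGS proteins) switch off the signal of G protein-coupled receptors, the receptor class through which neutrophils sense chemokines, complement fragments and bacterial peptides. An occupied receptor loads the alpha subunit of a heterotrimeric G protein with GTP, and an RGS protein speeds the hydrolysis of that GTP so that the subunit returns to rest. In leukocytes the amount of each RGS protein is known to set how strongly and for how long a cell answers a chemoattractant. The 9 genes described here, *Rgs1*, *Rgs2*, *Rgs3*, *Rgs10*, *Rgs12*, *Rgs14*, *Rgs16*, *Rgs18* and *Rgs19*, were chosen by family membership and symbol, out of 38739 genes in the table. Each of the 9 was above 0 in some sample, so all were among the 23049 genes tested. The table holds 12 further genes with an *Rgs* name, which are described after them.

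The cells were neutrophils washed from the peritoneum of C57B/L6 mice with a knockout of cGAS, an enzyme that senses DNA in the cytosol, after an injection of thioglycolate as the methods of the paper state. The untreated cells stayed 2 h in medium, and the others received for the same time LPS, the lipopolysaccharide of *Escherichia coli*, at 500 ng/mL by the labels, and the methods of the paper give a lower dose. Each group has 3 samples, every sample carries the knockout, and no wild-type sample was analysed here, so the comparison asks what LPS does in cells without cGAS. Neither the labels nor the methods say whether the samples of a group came from separate mice, or that the cells were purified after the wash.

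The deposited table is labelled as normalized counts, but its values are not whole numbers of reads. They were taken as TPM, a measure of transcript abundance per unit of transcript length as a share of the sample, scaled by the authors with 1 factor per sample, and are called scaled TPM here. Whether the values of the 9 genes are averages over transcripts could not be read from the table. The sequencing depth is unknown, since TPM does not show it, and the spread between the 3 samples is the only error. *Cgas* itself was listed at 0.0286 to 0.307 scaled TPM over the 6 samples. Not every gene looked up here has a row in the table. Those without a row lie on chromosomes 13 to 19 or X, and no gene looked up on chromosomes 14 to 19 or X has one. A missing row was therefore not read as a lack of expression. The 12 of 14 neutrophil markers in the table summed to 9817 to 28616 scaled TPM in the untreated and 16171 to 54913 in the LPS samples. *S100a8* and *S100a9* were far above the rest of them in every sample, at 2086 to 16151 untreated and 5536 to 28393 after LPS. Some were low, with *Camp* at 1.16 to 24.1 and 7.18 to 36.0 and *Cd177* at 1.47 to 34.6 and 19.5 to 29.2. *Csf3r* and *Cxcr2* were lower in all LPS samples. Other cells were present too: 6 of 8 B cell markers summed to 143 to 545 in the untreated and 67.3 to 239 in the LPS samples, 8 of 11 macrophage markers to 165 to 195 and 267 to 416, 7 of 8 T cell markers to 15.2 to 19.0 and 6.59 to 14.9, 3 of 7 mast cell markers to 4.69 to 40.8 and 5.05 to 49.1, and 5 of 6 eosinophil markers to 3.10 to 8.52 and 2.02 to 5.31, with the eosinophil gene *Epx* at 0 in all samples. In such mixed samples, fewer cells of a type and less RNA per cell cannot be told apart. The summed value was 603599 to 713384 in the untreated and 404675 to 465904 in the LPS samples. Pseudogenes held 64.7 to 70.7% of it in the untreated and 32.3 to 40.5% in the LPS samples. Protein-coding genes held 21.6 to 29.0% of the summed value of the untreated samples and 50.6 to 59.99% of that of the LPS samples, a shift that moves every other value, so other scalings are given where they matter.

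None of the 9 genes exceeded 20.7 scaled TPM. After LPS, every *Rgs1* value was higher and every *Rgs2* value lower than in the untreated samples, and *Rgs19* was also higher in all 3. If a value is an average over the transcripts of a gene, a gene with many annotated transcripts is listed lower, so levels are compared between groups and not between genes.

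The study called a gene when its unadjusted p was under 0.01 and its log2 fold change beyond 2. By these limits 0 of the 9 genes were called higher and 0 lower by limma, a linear model fitted over all genes on log2(scaled TPM + 1). Across all genes tested, 1.69% were called higher and 1.31% lower. A Benjamini-Hochberg adjusted p under 0.05 was reached by 0 of the 9 genes, against 1.84% of all genes. At an unadjusted p under 0.05, 2 of the 9 were higher (*Rgs1* and *Rgs19*), against 10.3% of all genes, and 1 was lower (*Rgs2*), against 6.66%. The LPS samples lay above all untreated samples for these same 2 genes and below them for *Rgs2*, whereas 13.1% of all genes had all LPS samples above and 9.75% all below. Among the 12754 protein-coding genes tested, which include all 9, 18.0% had all LPS samples above and 8.71% all below. Of these 12754, 1744 were higher and 669 lower at an unadjusted p under 0.05, and 2.31% were called higher and 0.353% lower. The median log2 fold change of the 9 genes was 0.05, beside 0.01 over all genes tested. With voom, the count-based weighting the study names, 2 of the 9 were called higher (*Rgs1* and *Rgs19*) and 0 lower, and 3 had an adjusted p under 0.05 (*Rgs1*, *Rgs12* and *Rgs19*). Voom rescales each sample to a common sum, which put the median of all genes at 0.67, called 6.73% of them higher and gave 40.8% an adjusted p under 0.05. With the sum of the protein-coding genes as the common sum instead, a setting added after seeing the data, voom called 0 of the 9 genes. The sum of macrophage markers was higher in all LPS samples (267 to 416 against 165 to 195 scaled TPM) and that of T cell markers lower (6.59 to 14.9 against 15.2 to 19.0). Taken singly, 2 of the 8 macrophage markers were higher in all LPS samples and 1 was lower. Of the 7 T cell markers, 0 were lower in all LPS samples. The part of these cells in the RGS differences was not tested. P values measure the spread between these samples, which may be technical.

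**Figure D1:**
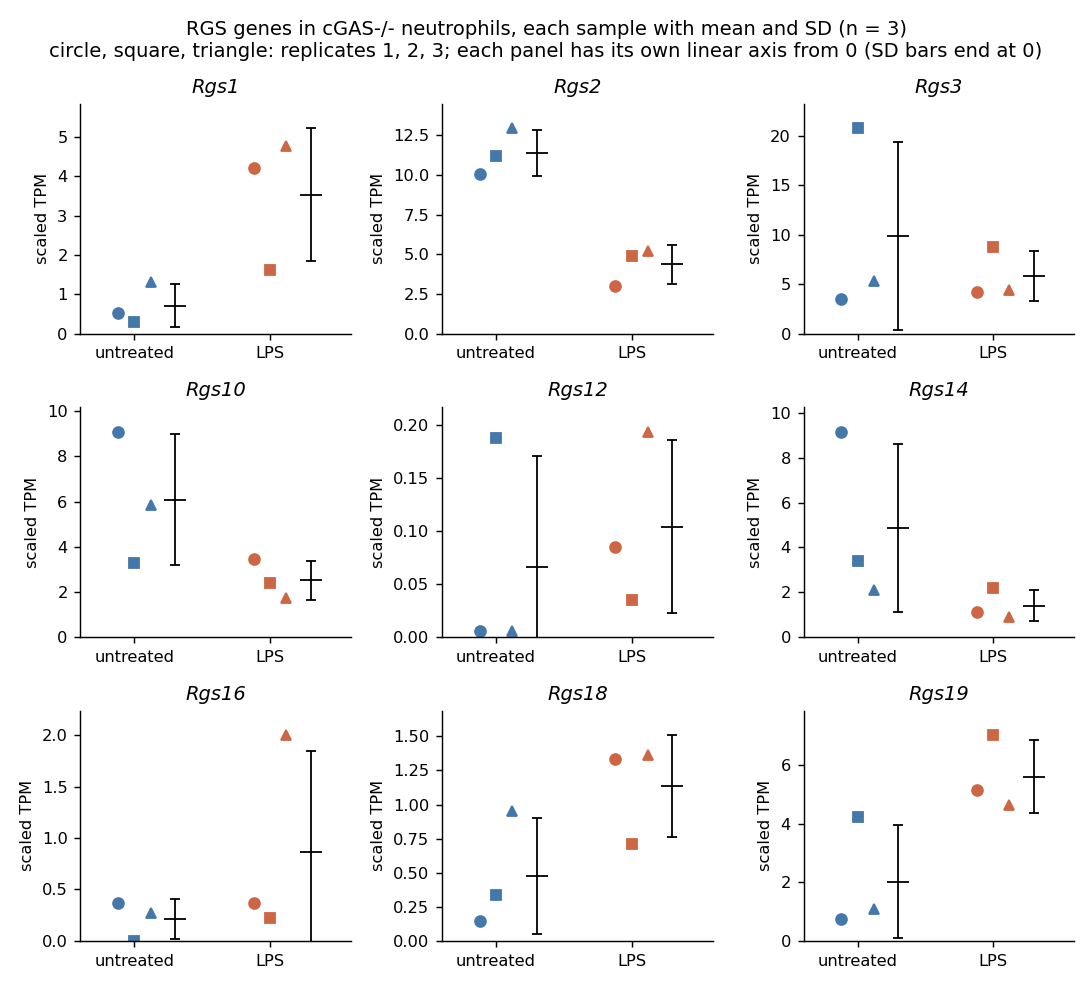
Scaled TPM (y axis, linear from 0, a separate scale for each gene) of the 9 RGS genes in the 3 untreated (blue) and 3 LPS (orange) samples, with the group mean and SD beside the points. The groups do not overlap for *Rgs1*, *Rgs2* and *Rgs19*, and single samples stand far from their group for *Rgs3* (20.7 in untreated replicate 2) and *Rgs16* (2.00 in LPS replicate 3).

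*Rgs1* and *Rgs2* belong to the small RGS proteins, which consist of little more than the RGS domain. *Rgs1* acts on the inhibitory and Gq classes of alpha subunits, and is best known from lymphocytes, where it dampens the answer to chemokines. Its untreated values were 0.532, 0.295 and 1.32 scaled TPM, and its LPS values were 4.21, 1.62 and 4.79. The lowest LPS sample, replicate 2, was only slightly above the highest untreated sample, replicate 3. The means were 0.716 ± 0.537 and 3.54 ± 1.69 scaled TPM (SD, n = 3), 4.94-fold apart. On the log2 scale LPS exceeded untreated by 1.37 ± 0.45 (SE, 95% interval 0.28 to 2.45), and the adjusted p of *Rgs1* in limma was 0.19. Over the 18 alternatives the log2 fold change ran from 0.56 to 2.32 and the adjusted p from 0.015 with voom to 0.52. Within each group, replicate 2 had the lowest *Rgs1* value, the lowest sums of B cell and T cell markers and the highest sum of neutrophil markers. Its B cell sums were 143 scaled TPM untreated and 67.3 after LPS, its T cell sums 15.2 and 6.59, and its neutrophil sums 28616 and 54913. Single B cell markers did not all follow, with untreated *Cd79b* at 111 in replicate 2 and 61.3 in replicate 1. The part of any cell type in the result was not tested. The B cell sum itself was not higher after LPS, with 545, 143 and 406 in the untreated samples and 239, 67.3 and 226 in the LPS samples.

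*Rgs2*, which prefers the Gq class of alpha subunits, went the other way. Its untreated values of 10.1, 11.2 and 12.9 scaled TPM lay close together, and its LPS values were 2.98, 4.87 and 5.23. Each LPS value was below each untreated value by a wide gap, with the highest LPS sample at 5.23 and the lowest untreated sample at 10.1. The means were 11.4 ± 1.45 and 4.36 ± 1.21 scaled TPM (SD, n = 3), 2.61-fold apart. The log2 fold change of *Rgs2* was -1.23 ± 0.31 (SE, 95% interval -1.999 to -0.46) with an adjusted limma p of 0.11, the lowest of the 9 genes. It was negative under all 18 alternatives, from -1.88 to -0.69, while the adjusted p ran from 0.043, without a mean-variance trend, to 0.36.

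*Rgs16* and *Rgs18* are small RGS proteins as well, the latter found mainly in blood cells and their precursors. For *Rgs16* the untreated samples gave 0.368, 0 and 0.274 scaled TPM and the LPS samples 0.368, 0.227 and 2.00. LPS replicate 3 alone was high, and the other LPS samples lay within or close to the untreated range. Its log2 fold change was 0.51 ± 0.39 (SE, adjusted p = 0.55), and 0.11 without that sample. For *Rgs18* the untreated samples gave 0.143, 0.334 and 0.956 and the LPS samples 1.33, 0.708 and 1.36, so that LPS replicate 2 lay below untreated replicate 3. Its log2 fold change was 0.55 ± 0.34 (SE, adjusted p = 0.47).

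*Rgs3* shares the RGS domain of this subfamily but is made in long and short forms, which the table does not separate. Its values were 3.55, 20.7 and 5.28 scaled TPM untreated and 4.24, 8.75 and 4.43 after LPS. Untreated replicate 2 was far above all other samples, and the remaining values overlapped. The log2 fold change was -0.39 ± 0.66 (SE, adjusted p = 0.76), and it was 0.29 without untreated replicate 2.

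*Rgs10*, *Rgs12* and *Rgs14* form a subfamily in which *Rgs12* and *Rgs14* encode large proteins that also bind Ras-like GTPases and, through a GoLoco motif, resting inhibitory alpha subunits, while *Rgs10* encodes a short one that acts on inhibitory alpha subunits. The mean of *Rgs10* was 6.08 ± 2.90 scaled TPM untreated and 2.53 ± 0.860 after LPS (SD, n = 3). The sample values were 9.09, 3.29 and 5.86 against 3.45, 2.40 and 1.74, and untreated replicate 2 fell among the LPS samples. The log2 fold change of *Rgs10* was -0.95 ± 0.42 (SE, adjusted p = 0.32). *Rgs14* was listed at 9.14, 3.39 and 2.12 scaled TPM untreated and at 1.13, 2.20 and 0.914 after LPS. The groups overlapped by a narrow margin, LPS replicate 2 being just above untreated replicate 3, and untreated replicate 1 stood far above the rest. Its log2 fold change was -1.14 ± 0.52 (SE, adjusted p = 0.33), and -0.65 without untreated replicate 1. *Rgs12* was near 0 throughout, with a highest value of 0.193, and its log2 fold change was 0.05 ± 0.09 (SE, adjusted p = 0.77). Its adjusted p of 0.017 with voom went with a log2 fold change of 0.78, which is 0.11 relative to the median of all genes in that fit. In no other setting was the adjusted p of *Rgs12* under 0.05.

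*Rgs19*, also called GAIP, belongs to another subfamily with a cysteine-rich start and acts on inhibitory alpha subunits. Its untreated values were 0.732, 4.23 and 1.08 scaled TPM, and its LPS values were 5.15, 7.01 and 4.64. All LPS samples were higher, although untreated replicate 2 came close to LPS replicate 3. The means were 2.02 ± 1.93 and 5.60 ± 1.25 scaled TPM (SD, n = 3), 2.78-fold apart. For *Rgs19* the log2 fold change was 1.29 ± 0.50 (SE, 95% interval 0.08 to 2.501) with an adjusted limma p of 0.26. It was positive under all 18 alternatives, from 0.62 to 2.15, with an adjusted p from 0.022 to 0.51. *Rgs19* overlaps *Tcea2* on the other strand by 449 bases, and *Tcea2* was listed at 0.0166 to 0.472 scaled TPM untreated and 0.565 to 1.25 after LPS. Whether strand was used in the quantification is not given in the sources used here.

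**Figure D2:**
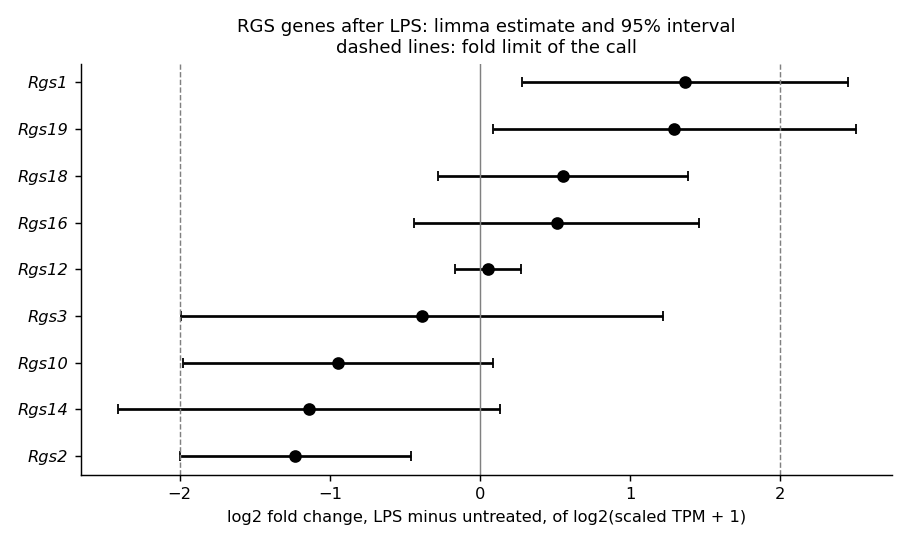
Log2 fold change of the 9 RGS genes on the log2(scaled TPM + 1) scale (x axis, LPS minus untreated), with the 95% interval from limma; dashed lines mark the fold limit of 2 in either direction. The intervals of *Rgs1*, *Rgs19* and *Rgs2* lie on 1 side of 0, and the 6 others include 0.

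The size of each difference depends on how samples are scaled to each other, which a ratio of 2 genes within a sample does not. The pairs were chosen after their values were seen, so the ratios are a description without a test. The log2 ratio of *Rgs1* to *Rgs2* was -4.24, -5.25 and -3.29 in the untreated samples and 0.50, -1.59 and -0.13 in the LPS samples. Each LPS ratio was above each untreated ratio. That order had to follow, since all LPS values were above the untreated ones for *Rgs1* and below them for *Rgs2*. The group means of -4.26 ± 0.98 and -0.41 ± 1.07 (SD, n = 3) were 3.85 apart on the log2 scale. The log2 ratio of *Rgs19* to *Rgs2* was -3.78, -1.40 and -3.58 untreated and 0.79, 0.52 and -0.17 after LPS. It too had to be without overlap for the same reason, and the difference of the means was 3.30. The zero of such a ratio has no meaning here, since both values may be averages over different numbers of transcripts.

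**Figure D3:**
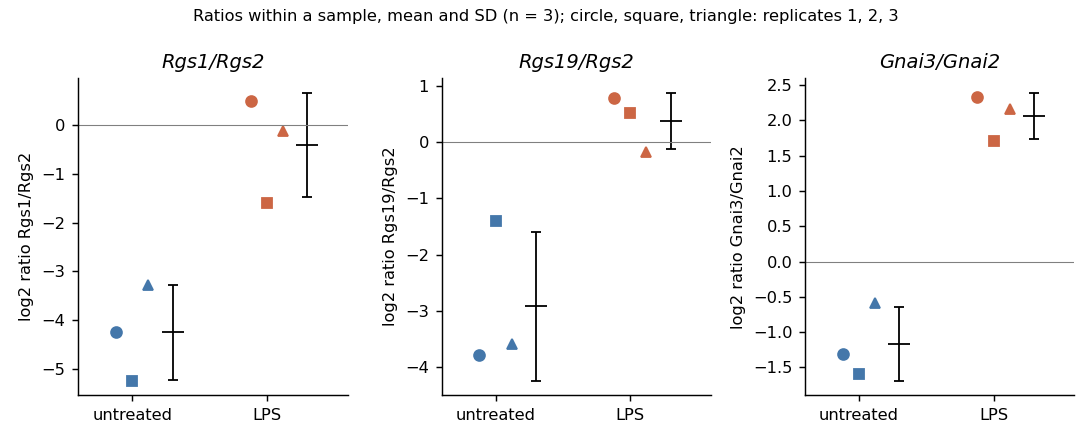
Log2 of the ratio of 2 genes within each sample (y axis), with the mean and SD of each group, for *Rgs1* to *Rgs2*, *Rgs19* to *Rgs2* and *Gnai3* to *Gnai2*. The group means of the 3 ratios differ by 3.85, 3.30 and 3.23. The untreated and LPS samples do not overlap in any of them, as had to follow from genes that differ in opposite directions without overlap.

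Scaling moved the sizes of the RGS differences more than their signs. When samples were scaled to the same sum of the protein-coding genes, the log2 fold change was 1.10 for *Rgs1*, 0.97 for *Rgs19* and -1.66 for *Rgs2*. In that fit 30.0% of all called genes were higher, compared with 56.4% under the authors' scaling, 42.8% after centring on the median and 89.8% with voom. Centring on the median put the median of all genes at -0.19. The signs of *Rgs1*, *Rgs2*, *Rgs10*, *Rgs14*, *Rgs16*, *Rgs18* and *Rgs19* were the same in all alternatives run, and those of *Rgs3* and *Rgs12* were not.

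**Figure D4:**
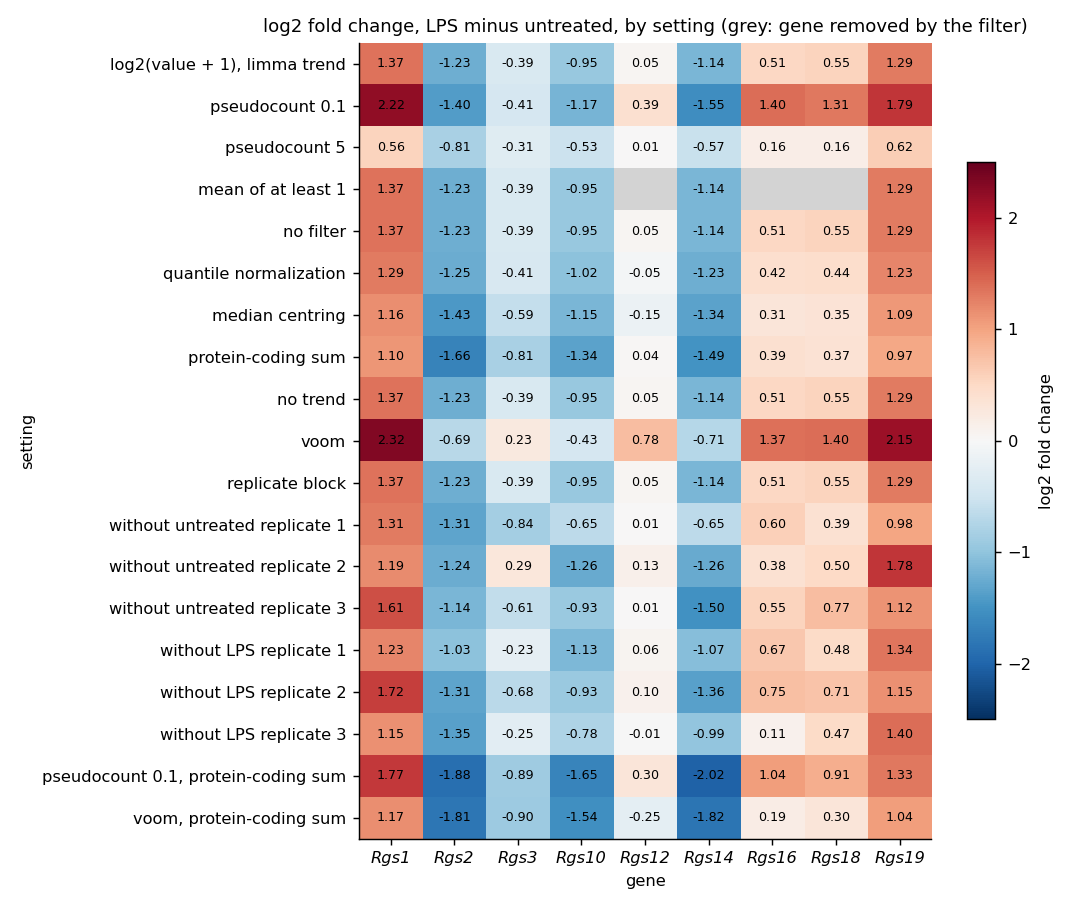
Log2 fold change (number and colour, LPS minus untreated) of each RGS gene (columns) under the reported setting and the 18 alternatives (rows), with grey where the gene did not pass the filter. *Rgs1* ranges from 0.56 to 2.32 and *Rgs2* from -1.88 to -0.69, while *Rgs3* and *Rgs12* take both signs.

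Position links several of the genes. On GRCm39, *Rgs2* (143875076 to 143879899, minus strand), *Rgs1* (144118034 to 144124980, minus strand) and *Rgs18* (144628291 to 144651189, minus strand) lie on chromosome 1 within 0.776 Mb, together with *Rgs13* and *Rgs21*. The remaining genes of the table in this stretch are 2 processed pseudogenes, which were listed at 0 in all samples. Neighbours in it thus had opposite differences, with *Rgs2* lower and *Rgs1* higher in all LPS samples. *Rgs16* lies elsewhere on chromosome 1 (153616091 to 153621228), and *Rgs19* (181330212 to 181335997), *Rgs3* (62478084 to 62622238), *Rgs12* (35106715 to 35196988), *Rgs10* (127975345 to 128020482) and *Rgs14* (55517258 to 55535857) lie on chromosomes 2, 4, 5, 7 and 13.

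The promoters of *Rgs2* and *Rgs19* are shown because these genes differed in opposite directions without overlap of the groups. The sequences are from RefSeq on GRCm38.p6, a build other than that of the positions above, and each runs from 250 bases before the annotated start to 50 bases after it, with the transcribed bases in capitals. *Rgs19* has 3 such windows, of which the one farthest upstream is given. Both lie on the minus strand, at chr1:144004100-144004399 and chr2:181693928-181694227.
Rgs2: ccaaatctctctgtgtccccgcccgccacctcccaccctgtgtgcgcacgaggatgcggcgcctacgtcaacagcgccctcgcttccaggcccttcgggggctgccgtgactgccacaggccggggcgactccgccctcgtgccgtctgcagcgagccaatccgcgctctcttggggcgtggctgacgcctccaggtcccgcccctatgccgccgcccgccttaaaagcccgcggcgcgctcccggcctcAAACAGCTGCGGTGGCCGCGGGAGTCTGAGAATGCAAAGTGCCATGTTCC
Rgs19: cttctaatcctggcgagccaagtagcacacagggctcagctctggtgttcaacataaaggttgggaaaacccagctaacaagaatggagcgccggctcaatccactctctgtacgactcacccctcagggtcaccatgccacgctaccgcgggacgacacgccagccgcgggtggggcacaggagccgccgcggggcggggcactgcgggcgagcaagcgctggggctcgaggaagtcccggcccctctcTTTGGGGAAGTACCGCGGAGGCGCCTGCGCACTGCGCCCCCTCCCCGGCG
No promoter sequence was used for *Rgs1*, *Rgs14* and *Rgs18*. Among the 10 windows of the other 6 genes, both strands were searched for the κB motif of NF-κB, the cyclic AMP response element TGACGTCA and the AP-1 motif TGANTCA. The κB and AP-1 letters were each found in 1 of the 10 windows, a second start of *Rgs12* in both cases, and the cyclic AMP element in 0. Of all 32851 windows of this length, 8.46% held the κB motif, 7.81% the AP-1 motif and 1.79% the cyclic AMP element.

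The 12 other genes with an *Rgs* name, which include *Rgs9bp*, an anchor protein of the *Rgs9* product rather than an RGS protein, were low or absent. *Rgs11*, *Rgs22* and *Rgs7bp* have no row in the table, so their levels are unknown. *Rgs21* was listed at 0 in all samples, and of the 11 others 0 were called by limma in either direction. *Rgs4* was listed at 0 in the untreated samples, while LPS gave 0.229, 1.44 and 0.190 scaled TPM. *Rgs13*, an RGS gene of germinal centre B cells and mast cells, was likewise at 0 without LPS and was listed at 0.791, 0 and 0.635 with it. The LPS sample at 0 was replicate 2, the one with the lowest B cell and mast cell sums of its group (67.3 and 5.05 scaled TPM). Of the 3 mast cell markers in the table, *Kit* did not follow, at 3.17 in LPS replicate 2 and 2.31 in LPS replicate 1. LPS replicate 2 also had the lowest T cell sum and the highest neutrophil sum of its group (6.59 and 54913 scaled TPM), and the part of these cells was not tested. *Rgs17* was lower in all LPS samples, at 0, 0.00651 and 0.0200 against 0.0930, 0.269 and 0.0540. *Rgs20* reached 0.583 in untreated replicate 2 and stayed at or below 0.0395 in the other samples. *Rgs5*, *Rgs6*, *Rgs7*, *Rgs8*, *Rgs9*, *Rgsl1* and *Rgs9bp* did not exceed 0.371 in any sample.

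The substrates of these proteins are the alpha subunits, and the 23 genes of G protein subunits in the table included 0 called in either direction. Over all genes, 1.69% were called higher and 1.31% lower, so 0 calls in a list of this size lie near that share. At an unadjusted p under 0.05, 3 of the 23 subunit genes were higher and 2 lower, against 10.3% and 6.66% of all genes. The genes named from here to the receptors were chosen after their values were seen. *Gnai2*, the main inhibitory alpha subunit of neutrophils, was listed at 148, 275 and 172 scaled TPM untreated and at 34.1, 91.9 and 39.1 after LPS, and *Gnai3*, its close relative, at 59.5, 90.9 and 115 untreated and at 172, 299 and 175 after LPS. Neither pair of groups overlapped. The log2 fold change was -1.92 ± 0.48 (SE, adjusted p = 0.11) for *Gnai2* and 1.27 ± 0.39 (SE, adjusted p = 0.17) for *Gnai3*. Within each sample, the log2 ratio of *Gnai3* to *Gnai2* was -1.31, -1.60 and -0.59 untreated and 2.33, 1.70 and 2.16 after LPS.

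Other regulators of the pathway also gave 0 calls, which in lists of this size is near the share of all genes (1.69% higher, 1.31% lower). Of the 5 genes of receptor kinases and arrestins, 0 had an unadjusted p under 0.05, and of 9 further G protein regulators 2 were lower at that level. Of all genes, 10.3% were higher and 6.66% lower at that level. *Gpsm1*, which holds inhibitory alpha subunits in their resting state, was listed at 10.95, 5.88 and 13.98 scaled TPM untreated and at 1.96, 1.94 and 1.85 after LPS, without overlap. Its log2 fold change of -1.88 ± 0.38 (SE, adjusted p = 0.070) fell short of the fold limit. *Snx14*, a sorting nexin with an RGS-like domain, differed by -1.24 ± 0.28 (SE, adjusted p = 0.091), with all LPS samples lower. Among 20 effector genes 0 were called, 2 were higher and 0 lower at an unadjusted p under 0.05. *Pik3r5*, a regulatory subunit of the phosphoinositide kinase that beta and gamma subunits activate, was listed at 5.61, 10.3 and 8.90 untreated and at 17.4, 53.7 and 29.6 after LPS. *Pde4b*, which breaks down cyclic AMP, was listed at 3.06, 2.15 and 10.9 untreated and at 14.1, 14.7 and 15.8 after LPS, and for both genes all LPS samples were above all untreated samples. Their log2 fold changes were 1.80 ± 0.48 (SE, adjusted p = 0.13) and 1.57 ± 0.54 (SE, adjusted p = 0.22).

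With the reported setting the only pathway genes called were receptors, 2 of 12 chemoattractant receptor genes being lower and 0 higher. *Fpr1*, *Fpr2* and *Ltb4r1* were also looked up and have no row in the table. Over all genes tested 1.31% were called lower and 1.69% higher, and over the protein-coding genes tested 0.353% and 2.31%. *Ccr1*, a receptor for inflammatory chemokines, was listed at 341, 258 and 268 scaled TPM untreated and at 32.2, 57.9 and 41.4 after LPS. It fell 6.60-fold between the means, by 2.72 ± 0.33 (SE) on the log2 scale, and its adjusted limma p of 0.022 was the only one under 0.05 among the 80 tested genes of the 6 pathway lists. *Cxcr2*, the receptor that draws neutrophils out of the marrow and into tissue, was listed at 39.4, 119.9 and 100.2 untreated and at 7.10, 23.6 and 8.69 after LPS. It fell by 2.67 ± 0.62 (SE, adjusted p = 0.094) on the log2 scale, and it was not called without untreated replicate 2, untreated replicate 3, LPS replicate 1 or LPS replicate 3, which left 1 called receptor each time. In the other direction, the complement receptor *C5ar1* differed by 0.77 ± 0.38 (SE, adjusted p = 0.36) and *Ptafr*, the receptor of platelet-activating factor, by 0.75 ± 0.27 (SE, adjusted p = 0.23) on the log2 scale. Over all 6 lists, 38 genes had a positive and 42 a negative log2 fold change, with a median of -0.01.

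**Figure D5:**
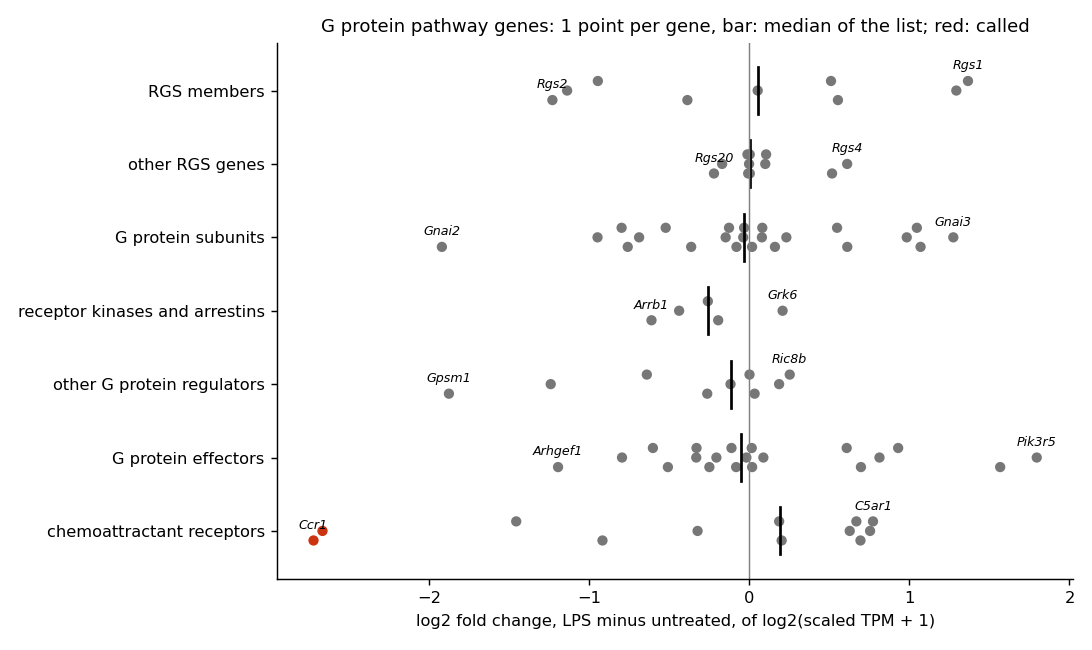
Log2 fold change on the log2(scaled TPM + 1) scale (x axis, LPS minus untreated) of the RGS genes and of 6 lists of G protein pathway genes, 1 point per gene, with the median of each list as a bar and the lowest and highest gene named. The 2 called genes, in red, are *Ccr1* and *Cxcr2*, and no RGS gene lies beyond 1.37 in either direction.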

How the data were processed

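RNA of peritoneal cGAS-/- neutrophils from 6 samples, 3 untreated and 3 with LPS, was sequenced, and groups were taken from the sample titles. By the methods of the paper and the labels, the authors aligned reads to GRCm39 with STAR, estimated transcripts by kallisto and normalized with edgeR, and fastp and mm10 are also named. The deposited table was read as TPM, with the mean over the transcripts standing for a gene and a common factor set by the authors within each sample. In the third untreated sample, 1199 of 1355 values with 14 or more digits ended within 9 digits once multiplied by a whole number up to 60, against 2.33% for random digits. The values of the 9 RGS genes have at most 7 digits, so the number of transcripts behind each could not be read. Depth is unknown, and the annotation release is not given in the sources used here.

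The 15690 genes without any value above 0 did not enter. The other 23049 were tested with limma 3.58.1 in R 4.3.3 on log2(value + 1) (lmFit, eBayes with a trend, two-sided, no covariates), with Benjamini-Hochberg adjustment over all of them. The study's own weighting, voom, expects counts and was an alternative. A pseudocount of 1 understates differences of low genes. Positions and gene types are from the GENCODE annotation of GRCm39. The fit was run on simulated data with large changes placed only in genes with a mean log2(value + 1) above 4. No RGS member has such a mean, so the power of the fit for these genes was not tested. The members and gene lists were chosen with earlier results of these data known. Genes were named by rule: all members, every other *Rgs* gene above 0, and in each pathway list up to 4 called genes and up to 2 in the other direction; where the text departs from this rule it says so. Alternatives were other pseudocounts, filters, scalings and variance models, a replicate block and each sample left out. Tables and plots were made with matplotlib 3.10.9, pandas 2.3.3 and scipy 1.17.1 under Python 3.11.15.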

Additional observations from a re-analysis of the deposited data

How the results depend on the processing

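Of 159 alternative values of the 9 log2 fold changes, 151 kept their direction and their side of the limits, 6 changed sign and 2 passed the limits. *Rgs3* was 0.23 with voom, and -0.84 to 0.29 as each sample was left out (positive without untreated replicate 2). *Rgs12* was -0.047 with quantile normalization, -0.15 with median centring, -0.25 with voom on the sum of protein-coding genes, and -0.0051 to 0.13 as each sample was left out (negative without LPS replicate 3). The cause was not tested. With voom 2 RGS genes were called higher and 3 had an adjusted p under 0.05, and without a trend 1 did (*Rgs2*, 0.043). Otherwise the 3 counts of RGS genes were 0, also as each sample was left out. Pathway genes called higher were 0, but 2 with voom (*Pik3r5* and *Pde4b*), and 0 to 1 as each sample was left out (*Pde4b* without untreated replicate 3, *Pik3r5* without LPS replicate 1). Pathway genes called lower were 2, but 3 with a pseudocount of 0.1 (*Gpsm1* added), 4 with median centring or the protein-coding sum (*Gnai2* and *Gpsm1* added), 1 with voom, 5 with a pseudocount of 0.1 and the protein-coding sum, and 6 with voom on that sum. As each sample was left out they were 1 to 3, with *Ccr1* alone without untreated replicate 3, LPS replicate 1 or LPS replicate 3, *Gpsm1* in place of *Cxcr2* without untreated replicate 2, and *Gnai2* added without LPS replicate 2. The settings that join voom or a pseudocount of 0.1 with the protein-coding sum were chosen after seeing the data. A filter on a mean of at least 1 removed *Rgs12*, *Rgs16* and *Rgs18*. Over all genes, the calls at a log2 fold change beyond 2 ran from 389 higher and 301 lower to 856 and 493 with a pseudocount of 0.1, 129 and 168 with one of 5, 221 and 516 with the protein-coding sum, 1552 and 177 with voom, and 325 and 869 with voom on the protein-coding sum. The genes with an adjusted p under 0.05, 424 as reported, were 1040 with the filter, 1298 without a trend, 9393 with voom, 761 with voom on the protein-coding sum, and 11 to 469 as each sample was left out.

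The replicate numbers of the titles were tried as a block. Deviations from the group means correlated at 0.083 to 0.199 between samples of the same number and at -0.131 to 0.053 between others, and each sample correlated best with its own number, a hint from the data and not the design. With the replicate block, 0 RGS genes were called higher, 0 lower and 0 had an adjusted p under 0.05 (*Rgs1* 0.23, *Rgs2* 0.22, *Rgs19* 0.28), pathway calls were 0 higher and 2 lower, and the genes with an adjusted p under 0.05 over all genes numbered 16.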
